A study of Danio rerio with 8 samples.

Results

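The somatostatin genes sst1.1, sst1.2 and sst2 were followed across 8 bulk RNA-seq libraries of cells sorted from the zebrafish pancreas at 30 days post fertilization. They are the rows of the deposited gene table with those 3 names, 3 of 31953 genes, and all 3 passed the filter on low counts that left 16418 genes for testing. Every fish carried the transgenes Tg(ins:BB1.0L), driven by the insulin promoter, and TgBAC(sst1.1:memEGFP), a membrane EGFP reporter for sst1.1, and was kept under growth labelled normal. Cells with both signals gave 3 libraries (sst1.1+ins+), cells with the insulin signal gave 2 (ins+), and cells with the sst1.1 signal gave 3 (sst1.1+). Libraries were prepared by Smart-Seq2, which reads full-length cDNA and does not tag molecules. No label ties a library to a fish, pool or sort, so the p-values reflect library-to-library spread alone, part of which may be technical.

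Somatostatin is a secreted peptide hormone made in the islet by delta cells, which lie beside insulin-producing beta cells and glucagon-producing alpha cells. It acts over short distances through receptors coupled to Gi/o proteins, which lower cAMP and open potassium channels, and so restrains the release of insulin and glucagon in mammals. Teleost fish carry several somatostatin genes, left by duplications of whole genomes and of single genes, and the reporter used here reads only one of them.

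Gene totals ran from 16948429 counts in an ins+ library to 30374029 counts in an sst1.1+ library. The somatostatin genes were so abundant that counting error was at most 0.233% of any of their values. Replicates spread far more than that in each group, except for sst2 in ins+, whose CV of 0.154% was no larger than the counting errors of 0.155 and 0.168%. Levels are given as CPM, counts scaled to each library's gene total with TMM factors. Gene lengths were not used, so levels are compared between libraries and not between genes. In bulk libraries fewer cells of a type and less RNA per cell cannot be told apart.

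The 5 delta-cell markers used here (sst1.1, sst1.2, sst2, the transcription factor gene HHEX and dkk3b, a secreted-protein gene) were all detected and summed to 187601 to 282890 CPM in sst1.1+ins+, to 88501 to 101193 CPM in ins+ and to 284068 to 363858 CPM in sst1.1+. The 3 somatostatin genes supplied most of this, 183765 of 187601 CPM in sst1.1+ins+ replicate 1, so the sum is no separate measure of delta cells. The sum of the beta-cell list followed the sort labels, at 117423 to 132535 CPM in sst1.1+ins+, 237359 to 258914 CPM in ins+ and 2406 to 3205 CPM in sst1.1+. That sum was led by ins, which supplied 235540 of 237359 CPM in ins+ replicate 1. The genes mnx1, nkx6.2 and slc2a2 had the same order of groups. The listed gene pdx1 did not, at 1162 and 1291 CPM in ins+ against 1657, 1465 and 1117 CPM in sst1.1+. The sort did not leave single-hormone libraries. Alpha-cell markers (gcga, gcgb and arxa) summed to 24448 to 34091 CPM in sst1.1+ins+, 11354 to 18657 CPM in ins+ and 33686 to 65958 CPM in sst1.1+. Acinar genes (14 listed names on 13 rows) summed to 21.5 to 148 CPM over all libraries. Erythrocyte markers (2 of 3 listed genes, hbae1.1 at 0) summed to at most 0.397 CPM and endothelial markers (3 of 3, fli1a at 0) to at most 0.847 CPM in any library. Mesenchymal markers (3 of 3, pdgfrb at 0) summed to 13.3 CPM in sst1.1+ replicate 3, with 193 counts of col1a1a and 108 of col1a2, and to at most 2.11 CPM in the remaining libraries.

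The gene behind the reporter, sst1.1 (ENSDARG00000040799), was the somatostatin gene that followed the sort. It stood at 156742, 210098 and 181291 CPM in sst1.1+ins+, at 54999.9 and 43259 CPM in ins+, and at 293172, 250837 and 298390 CPM in sst1.1+. No library of one group overlapped those of another, and sst1.1+ins+ lay between the other groups. As a share of all gene counts, sst1.1 took 16.7, 20.2 and 18.1% in sst1.1+ins+, against 5.56 and 4.35% in ins+ and 28.7, 25.4 and 28.9% in sst1.1+. Several percent of the reads of the ins+ libraries were therefore still assigned to sst1.1.

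In sst1.1+ins+ over ins+, sst1.1 was 3.72-fold higher (182711 ± 26707 CPM against 49130 ± 8302 CPM; log2 fold change 1.89 ± 0.15 SE, 95% interval 1.57 to 2.22, edgeR adjusted p = 9.90e-05). It was the member called higher there, where 0.755% of all tested genes were called higher and 30.3% had values that did not overlap between the groups. In ins+ over sst1.1+ it was 5.72-fold lower (49130 ± 8302 CPM against 280800 ± 26079 CPM; log2 fold change -2.51 ± 0.15 SE, 95% interval -2.85 to -2.18, edgeR adjusted p = 3.78e-06), against 2.42% of all genes called lower and 33.3% not overlapping. The sort gate used the sst1.1 reporter, so these differences are not independent of how the cells were chosen. Ductal markers (7 of 7 listed genes) were also lowest in ins+, with summed levels of 252 to 318 CPM in sst1.1+ins+, 130 to 159 CPM in ins+ and 311 to 474 CPM in sst1.1+. Most of that sum came from the keratin genes krt8 and krt18a.1, which averaged 175 and 93.0 CPM over the 8 libraries. The other ductal genes averaged at most 8.66 CPM (nkx6.1), with cftr at 0.711 CPM and sox9b at 0.945 CPM. Immune markers (5 of 5 listed genes, lcp1 at 0) summed to 12.3 to 41.5 CPM in sst1.1+ins+, 18.4 to 19.0 CPM in ins+ and 65.1 to 149 CPM in sst1.1+. Nearly all of that sum was cd74a, which averaged 55.7 CPM over the 8 libraries. The other immune genes averaged at most 0.837 CPM (mpx). The list of epsilon-cell and other hormone markers (5 of 5 listed genes, vip at 0) summed to 4715 to 12299.7 CPM in sst1.1+ins+, 340.2 to 6875 CPM in ins+ and 7412 to 16488 CPM in sst1.1+. Of these, pyyb, a peptide YY gene, stood at 1283, 522 and 730.1 CPM in sst1.1+ins+, 153 and 189.8 CPM in ins+ and 1275, 1326 and 1393 CPM in sst1.1+. The other abundant genes of that list differed from pyyb. The highest value of ghrl was in ins+ replicate 1, at 4791 CPM. For gip, at 1931 and 44.2 CPM in ins+, the values overlapped with sst1.1+ins+, which fell to 39.8 CPM in replicate 3. The part of these markers in the result was not tested. Track numbers in the descriptions run on from one another for 7 libraries and stand apart for ins+ replicate 2, and without that library the sst1.1 log2 fold changes were 1.74 over ins+ and -2.36 in ins+ over sst1.1+.

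Between the reporter-positive groups the difference in sst1.1 was smaller and its call depended on the test. The level was 1.54-fold lower in sst1.1+ins+ than in sst1.1+ (182711 ± 26707 CPM against 280800 ± 26079 CPM, SD, n = 3 each), a log2 fold change of -0.62 ± 0.12 SE with a 95% interval of -0.89 to -0.35. With an edgeR adjusted p of 0.0898 it did not pass the threshold of 0.05, although all 3 sst1.1+ins+ libraries lay below all 3 sst1.1+ libraries, a separation shared by 14.7% of tested genes. Only 0.207% of genes were called in this comparison. DESeq2 (adjusted p = 0.00138), limma-voom (0.00106) and edgeR without the filter on low counts (3.01e-06) did call it, at nearly the same log2 fold change. Their SEs were 0.14, 0.078 and 0.10 in that order, against 0.12 in the main fit. The DESeq2 call thus came with a larger SE and the others with a smaller one. Why the calls differ was not tested.

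**Figure D1:**
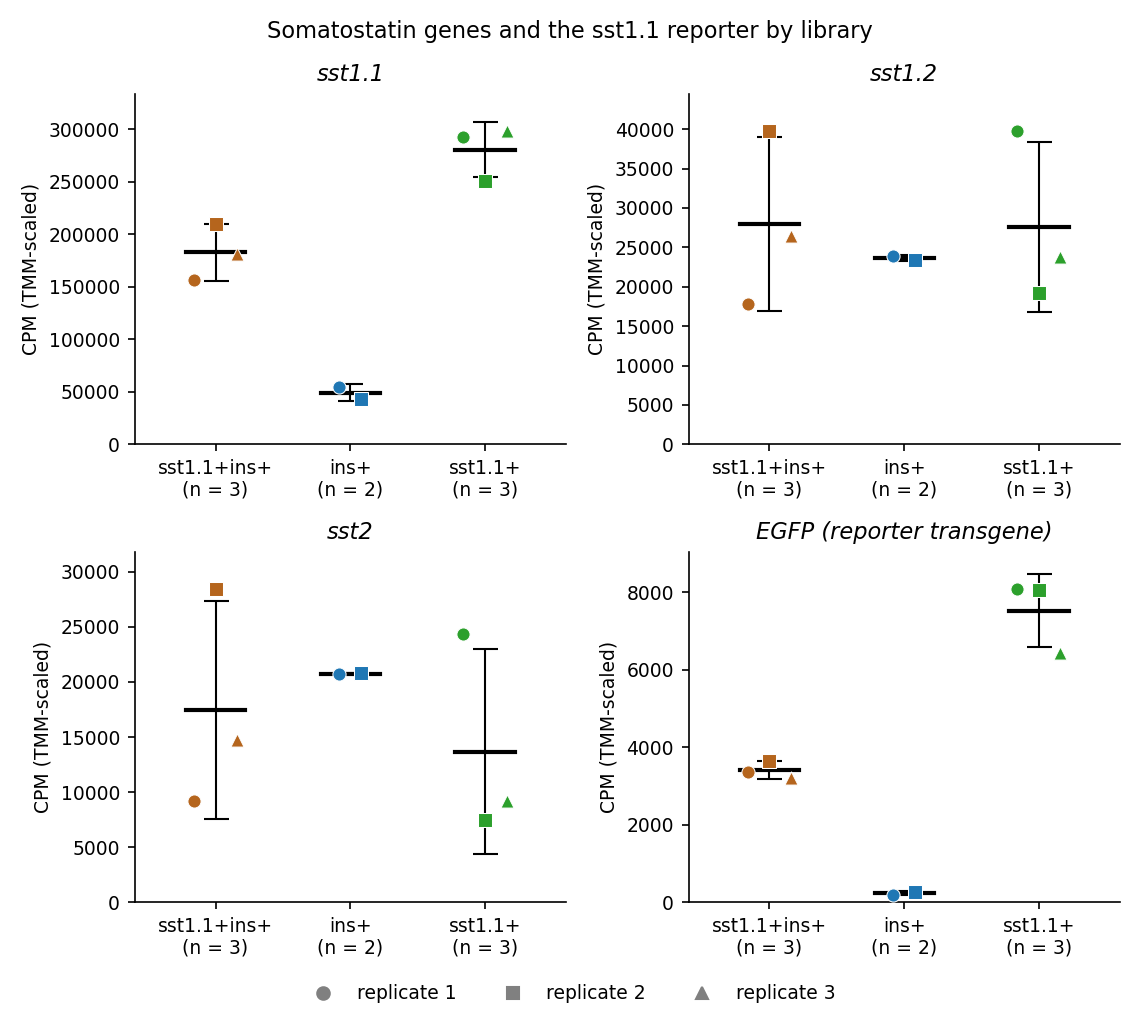
CPM (TMM-scaled, linear axes from 0) of sst1.1, sst1.2, sst2 and the EGFP reporter in each of the 8 libraries, by group; horizontal bars are group means and error bars SD. sst1.1 and EGFP separate all 3 groups, while the sst1.2 and sst2 values of the groups overlap and reach their highest values in sst1.1+ins+ replicate 2 and sst1.1+ replicate 1.

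The EGFP reporter was ordered like sst1.1 but spread further. It stood at 3376, 3658 and 3198 CPM in sst1.1+ins+, at 198 and 280 CPM in ins+, and at 8082, 8055 and 6432 CPM in sst1.1+. The groups did not overlap. EGFP was 2.21-fold lower in sst1.1+ins+ than in sst1.1+ (log2 fold change -1.14 ± 0.15 SE, edgeR adjusted p = 0.00652). It was 14.3-fold higher in sst1.1+ins+ than in ins+ (log2 fold change 3.84 ± 0.19 SE, adjusted p = 4.32e-06) and 31.5-fold lower in ins+ than in sst1.1+ (log2 fold change -4.98 ± 0.20 SE, adjusted p = 2.30e-07). The first of these calls was lost, with adjusted p between 0.0506 and 0.0685, when sst1.1+ins+ replicate 1, sst1.1+ins+ replicate 3 or sst1.1+ replicate 2 was left out. The gate was set on this fluorescence.

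Read against the gene it reports, EGFP was not in a constant proportion. There were 21.5, 17.4 and 17.6 EGFP reads per 1000 sst1.1 reads in sst1.1+ins+, against 3.60 and 6.47 in ins+ and 27.6, 32.1 and 21.6 in sst1.1+. The ins+ libraries thus held sst1.1 reads with few reporter reads, at 5.54-fold less EGFP per sst1.1 read than sst1.1+ libraries (difference of mean log2 ratios -2.47, exact permutation p = 0.2) and 3.89-fold less than sst1.1+ins+ libraries. The ratio was 1.42-fold lower in sst1.1+ins+ than in sst1.1+ (difference of mean log2 ratios -0.51, two-sided exact permutation p = 0.1), and these groups were parted by a narrow gap. For 3 libraries against 3 the smallest p possible is 0.1, and for 3 against 2 it is 0.2, so no ratio could pass at 0.05.

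The paralog sst1.2 (ENSDARG00000033161) did not follow the sort. It stood at 17832, 39721 and 26443 CPM in sst1.1+ins+, at 23902 and 23410 CPM in ins+, and at 39767, 19182 and 23795 CPM in sst1.1+. Each group's values overlapped with those of both others. The log2 fold change was 0.02 ± 0.28 SE in sst1.1+ins+ over sst1.1+ (95% interval -0.59 to 0.64, edgeR adjusted p = 0.99998), which leaves room for a level between 0.662 and 1.56 times that of sst1.1+. It was 0.24 ± 0.32 SE in sst1.1+ins+ over ins+ (interval -0.45 to 0.94, adjusted p = 0.843) and -0.22 ± 0.32 SE in ins+ over sst1.1+ (interval -0.91 to 0.47, adjusted p = 0.788). The sign turned when single libraries were left out: in sst1.1+ins+ over sst1.1+ to -0.32 without sst1.1+ins+ replicate 2, -0.19 without sst1.1+ replicate 2 and -0.07 without sst1.1+ replicate 3, in sst1.1+ins+ over ins+ to -0.10 without sst1.1+ins+ replicate 2, and in ins+ over sst1.1+ to 0.14 without sst1.1+ replicate 1.

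The third gene, sst2 (ENSDARG00000014190), was likewise not called in any of the 3 comparisons, at unadjusted edgeR p of 0.232 or more. It stood at 9191, 28421 and 14702 CPM in sst1.1+ins+, at 20738 and 20784 CPM in ins+, and at 24340, 7507 and 9182 CPM in sst1.1+. The ins+ values were close together and fell inside the range of both other groups, which spanned 3.09-fold in sst1.1+ins+ and 3.24-fold in sst1.1+. The log2 fold change was 0.35 ± 0.43 SE in sst1.1+ins+ over sst1.1+ (95% interval -0.60 to 1.296, edgeR adjusted p = 0.99998), -0.25 ± 0.48 SE in sst1.1+ins+ over ins+ (interval -1.302 to 0.80, adjusted p = 0.915) and 0.60 ± 0.48 SE in ins+ over sst1.1+ (interval -0.44 to 1.65, adjusted p = 0.559). A 2-fold rise lies inside the first and the last of these intervals and a 2-fold fall inside the middle one, so changes of that size were not excluded. Without the filter on low counts edgeR did call sst2 in ins+ over sst1.1+, at the same log2 fold change of 0.60 (adjusted p = 0.0226). The SE in that fit was 0.18, against 0.48 with the filter, so the call came with a smaller estimate of the spread. Without sst1.1+ replicate 1 that log2 fold change was 1.31 and the one in sst1.1+ins+ over sst1.1+ was 1.06. The value in sst1.1+ins+ over sst1.1+ turned to -0.20 without sst1.1+ins+ replicate 2, and in sst1.1+ins+ over ins+ to 0.05 without sst1.1+ins+ replicate 1.

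**Figure D2:**
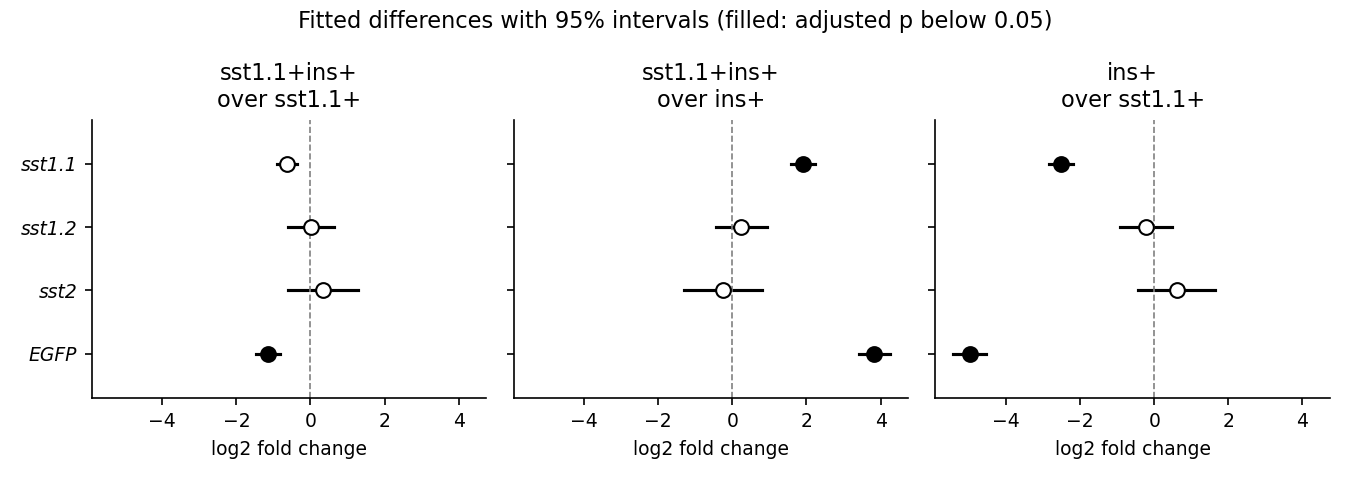
Fitted log2 fold changes (points) with 95% intervals (lines) of sst1.1, sst1.2, sst2 and EGFP in the 3 comparisons; filled points have an edgeR adjusted p below 0.05. sst1.1 and EGFP move in the same direction in every panel, and every interval of sst1.2 and sst2 spans 0.

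Summed over the 3 genes, somatostatin took 19.6, 26.7 and 22.3% of gene counts in sst1.1+ins+, against 10.1 and 8.79% in ins+ and 35.0, 28.1 and 32.0% in sst1.1+. The summed CPM was 2.41-fold higher in sst1.1+ins+ than in ins+ and 3.43-fold lower in ins+ than in sst1.1+, without overlap, while the highest sst1.1+ins+ library stood just above the lowest sst1.1+ library. That overlap came with TMM scaling: as shares of gene counts, above, these groups did not overlap (exact permutation p = 0.1, against 0.2 with TMM). What sst1.2 and sst2 added to this overlapped across groups, at 2.88, 6.55 and 4.12% of gene counts in sst1.1+ins+, against 4.51 and 4.44% in ins+ and 6.29, 2.71 and 3.19% in sst1.1+.

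In the ins+ libraries sst1.1 made up a smaller share of the somatostatin reads than in any other library, while the shares of the reporter-positive groups overlapped. Of the reads of the 3 genes, sst1.1 supplied 85.3, 75.5 and 81.5% in sst1.1+ins+, against 55.2 and 49.5% in ins+ and 82.1, 90.4 and 90.0% in sst1.1+. The remaining somatostatin reads of the ins+ libraries came from both other genes, with 24.0 and 26.8% from sst1.2 and 20.8 and 23.8% from sst2. These are shares of reads, not of molecules, because the genes' lengths were not used.

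Ratios within a library do not depend on how libraries are scaled. There were 11.4, 18.9 and 14.6 sst1.2 reads per 100 sst1.1 reads in sst1.1+ins+, against 43.5 and 54.1 in ins+ and 13.6, 7.65 and 7.97 in sst1.1+. For sst2 the same count was 5.86, 13.5 and 8.11 in sst1.1+ins+, against 37.7 and 48.04 in ins+ and 8.30, 2.99 and 3.08 in sst1.1+. Both ratios were highest in ins+ and overlapped between the reporter-positive groups; the sst2 ratio was 10.03-fold higher in ins+ than in sst1.1+ on the mean log2 scale, and the sst1.2 ratio 5.17-fold. Since the gate acts on the reporter of sst1.1, the denominator, neither is independent of the sort.

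The ratio of sst2 to sst1.2 holds neither the reporter gene nor the transgene. Its denominator sst1.2 is a paralog of sst1.1, however, and the part of reads that align to both genes was not tested. There were 51.5, 71.6 and 55.6 sst2 reads per 100 sst1.2 reads in sst1.1+ins+, against 86.8 and 88.8 in ins+ and 61.2, 39.1 and 38.6 in sst1.1+. Both ins+ libraries lay above all 6 reporter-positive libraries, whose groups overlapped. The mean log2 ratio was 0.96 higher in ins+ than in sst1.1+ (1.94-fold, two-sided exact permutation p = 0.2), 0.57 lower in sst1.1+ins+ than in ins+ (1.49-fold, exact p = 0.2) and 0.38 higher in sst1.1+ins+ than in sst1.1+ (1.304-fold, exact p = 0.3). Over the 15 exact tests made on ratios and sums, the adjusted p ran from 0.231 to 0.3, and none passed.

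**Figure D3:**
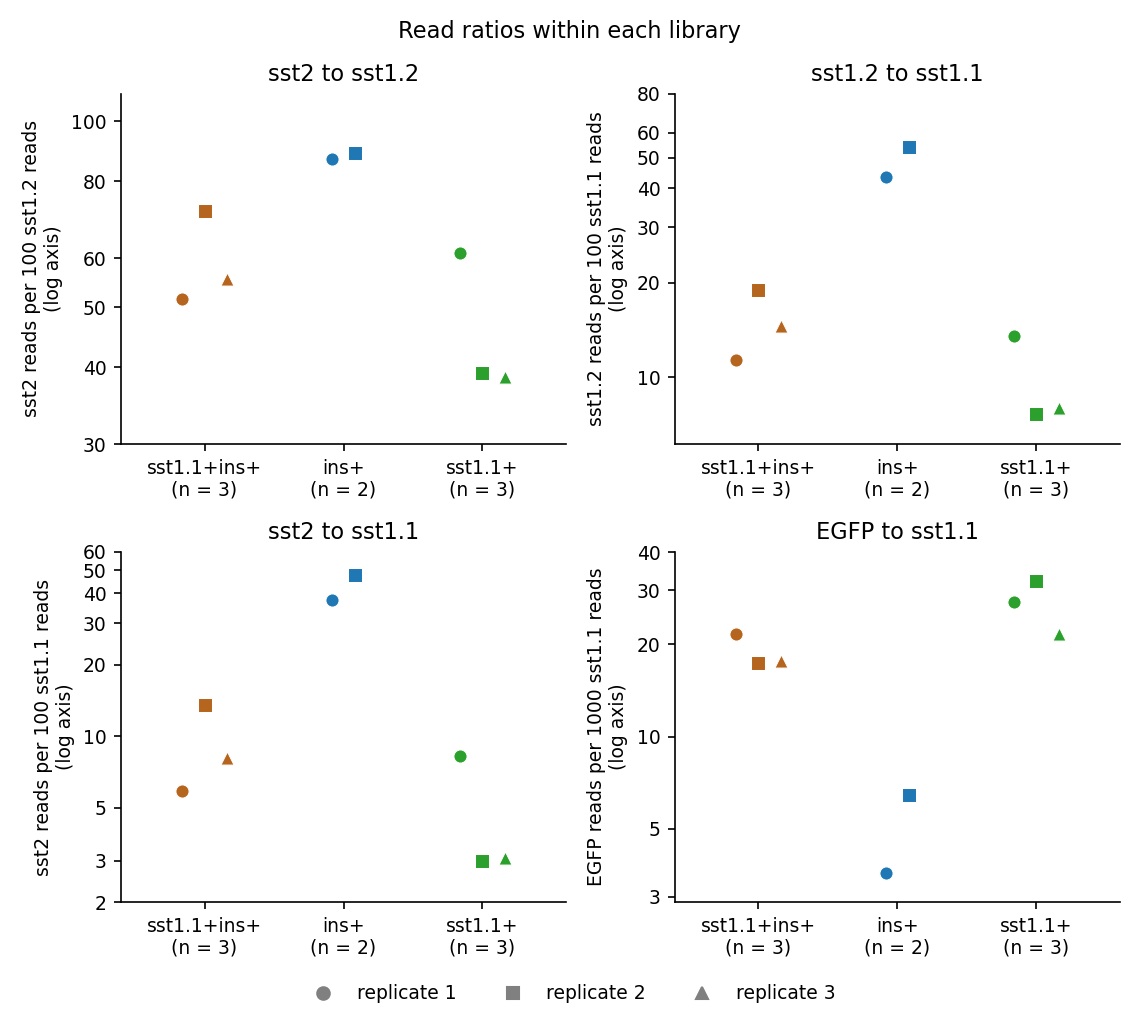
Reads of one gene per 100 or 1000 reads of another within each library, by group, on log axes; each point is a library. The ins+ libraries have the most sst2 per sst1.2 read (86.8 and 88.8 per 100) and the fewest EGFP reads per sst1.1 read (3.60 and 6.47 per 1000).

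Within the reporter-positive groups, sst1.2 and sst2 varied more than sst1.1. Their CVs were 39.4% and 56.8% in sst1.1+ins+ and 39.2% and 67.8% in sst1.1+, where sst1.1 had CVs of 14.6% and 9.29%. In ins+ the order was the opposite, with CVs of 1.47% for sst1.2, 0.154% for sst2 and 16.9% for sst1.1 over 2 libraries. Pooled over all 3 groups, the within-group SD of log2 CPM was 0.19 for sst1.1, 0.50 for sst1.2 and 0.77 for sst2, against a median of 0.16 over the 71 genes that averaged at least 1000 CPM. Of those 71 genes, 24 had a larger SD than sst1.1, 4 a larger one than sst1.2 and 2 a larger one than sst2. The genes with a larger SD than sst2 were gip, with 3.33, and ghrl, with 3.12, and the glucagon gene gcgb stood between sst2 and sst1.2 with 0.58, so the 5 abundant genes with the widest spread were all hormone genes.

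The libraries that were high in sst1.2 were also high in sst2. Both genes peaked in sst1.1+ins+ replicate 2 and sst1.1+ replicate 1, and both were low in sst1.1+ins+ replicate 1 and sst1.1+ replicate 2. Over the 8 libraries Pearson's r of log2 CPM was 0.806 (exact permutation p = 0.00774) and Spearman's rho 0.714 (exact permutation p = 0.0576). Adjusted over the 3 pairs of somatostatin genes, the p values were 0.0232 and 0.173. Without sst1.1+ replicate 1 and sst1.1+ins+ replicate 2, the libraries farthest from the median of sst1.2, r was 0.637 (exact permutation p = 0.211) over 6 libraries, so at a threshold of 0.05 the relation rests on those libraries. Taken as deviations from the group means, the values of the 8 libraries gave r = 0.990, a description with no test.

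Over the 8 libraries the other pairs showed no such relation, on a measure that includes the group differences in sst1.1. For sst1.1 and sst1.2 r was 0.267 (exact permutation p = 0.580) and rho 0.310 (p = 0.462), and for sst1.1 and sst2 r was -0.343 (exact permutation p = 0.434) and rho -0.238 (p = 0.582). Without both ins+ libraries, the farthest from the median of sst1.1, r was 0.347 and 0.0725 for these pairs. Deviations from the group means were not correlated for them. Within sst1.1+ins+, sst1.1 ranked the replicates as sst1.2 and sst2 did, at 156742, 210098 and 181291 CPM in replicates 1, 2 and 3. Within sst1.1+, sst1.1 was highest in replicate 3, whereas sst1.2 and sst2 were highest in replicate 1. Within the 6 reporter-positive libraries alone, sst1.2 and sst2 gave r = 0.957 (exact permutation p = 0.0222) and rho = 0.771 (exact p = 0.103). These p values were not adjusted, and the other pairs were given no p on this subset. Without sst1.1+ replicate 1 and sst1.1+ins+ replicate 2, r of sst1.2 and sst2 was 0.762 over the 4 left (exact permutation p = 0.333).

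Alpha-cell markers moved against sst1.2 and sst2 in sst1.1+ libraries but not in sst1.1+ins+ libraries. Their summed level was 33686, 65958 and 64955 CPM in sst1.1+ replicates 1, 2 and 3, where sst2 was high in replicate 1 alone, and 24448, 24948 and 34091 CPM in sst1.1+ins+ replicates 1, 2 and 3, where sst2 was highest in replicate 2. Acinar markers were also highest in sst1.1+ replicate 1, at 148 CPM, but stood at 43.7 CPM in sst1.1+ins+ replicate 2, below the 95.5 CPM of replicate 1. Their part in the within-group spread was not tested.

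**Figure D4:**
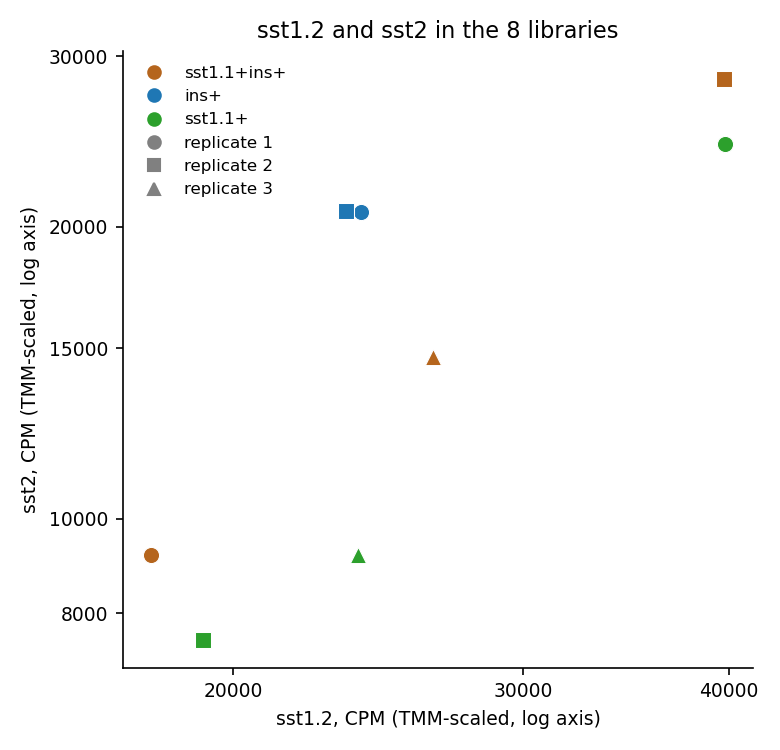
sst2 against sst1.2 in CPM (TMM-scaled, both axes log) for the 8 libraries, coloured by group and shaped by replicate number. sst1.1+ins+ replicate 2 and sst1.1+ replicate 1 stand apart at the top right, and both ins+ libraries hold more sst2 (20738 and 20784 CPM) than sst1.1+ replicate 3 (9182 CPM), the library nearest to them in sst1.2.

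By position, sst1.1 and sst1.2 are near neighbours. In RefSeq's GRCz12tu annotation, used here only for gene order, sst1.2 follows col4a4 and col4a3, and 1 unnamed locus separates it from sst1.1, which is followed by masp1 and ostn. The gene sst2 lies elsewhere, between cwc25 and nyap2b. Reads that align to more than 1 of these related genes cannot be apportioned without knowing how the authors counted them, so the values of sst1.1 and sst1.2 are uncertain to that extent. The non-somatostatin neighbours were not abundant. The complement-pathway protease gene masp1 averaged 9.78 ± 2.64 CPM in sst1.1+ins+, 4.43 ± 0.70 CPM in ins+ and 9.99 ± 1.99 CPM in sst1.1+, a difference that was not called in ins+ over sst1.1+ (edgeR adjusted p = 0.276). The basement-membrane collagen genes col4a4 and col4a3 stayed below 12 CPM in every library and were not called either.

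Some genes had a profile over the 8 libraries close to that of a somatostatin gene, by Pearson's r of log2 CPM among 3799 tested genes that averaged at least 20 CPM. Genes named only by an identifier, clone or locus code were left out of the 3799, so the counts of genes by r do not cover them. For sst1.1 they were dkk3b (r = 0.994), the heat shock protein gene hspa4a (0.991), the chitinase-family gene chia.6 (0.990), the integrin subunit gene itga6b (0.989) and the steroid reductase gene srd5a2b (0.988), and 156 genes in all had r above 0.9. The gene dkk3b stood at 3805, 4615 and 4264 CPM in sst1.1+ins+, at 1537 and 1035 CPM in ins+, and at 6499, 6492 and 6273 CPM in sst1.1+. Its order of groups was that of sst1.1, without overlap. Of these 5 genes, itga6b alone was called in sst1.1+ins+ over sst1.1+, at 193 ± 9.42 CPM against 377 ± 10.2 CPM (1.95-fold lower, edgeR adjusted p = 0.0134), where 0.207% of all genes were called. All 5 were called in both comparisons with ins+, where 0.92% and 4.03% of all genes were called; they were chosen for their likeness to sst1.1, which was called in both, so nothing is read from that count.

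None of the 3799 genes followed sst1.2 as closely. The highest r was 0.861, for the small nuclear RNA rn7sk, then 0.851 for kif1bp, 0.840 for RGR (2 of 2), 0.839 for lzic and 0.824 for amdhd2, and none of the 3799 genes passed 0.9. For kif1bp, a gene named for binding a kinesin motor, levels were 20.04, 37.2 and 20.9 CPM in sst1.1+ins+, 27.3 and 23.1 CPM in ins+, and 36.1, 14.1 and 27.7 CPM in sst1.1+. It was high in the same reporter-positive libraries as sst1.2, and none of these 5 genes was called in any comparison. They were chosen for their likeness to sst1.2, which was not called either, so nothing is read from that count.

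For sst2, 8 genes had r above 0.9, led by kctd12.2 (0.955), the mitochondrial ATP synthase subunit gene atp5ia (0.946), the stress-kinase gene map2k6 (0.937), scaf4b (0.933) and the claudin gene cldni (0.923). In mammals KCTD12 proteins are auxiliary subunits of GABA-B receptors. The gene kctd12.2 stood at 56.6, 139.7 and 91.5 CPM in sst1.1+ins+, at 124 and 84.4 CPM in ins+, and at 113, 47.0 and 49.1 CPM in sst1.1+. The tight-junction gene cldni stood at 23.2, 80.4 and 45.2 CPM in sst1.1+ins+, at 77.2 and 79.8 CPM in ins+, and at 46.5, 20.4 and 19.3 CPM in sst1.1+. Both peaked in sst1.1+ins+ replicate 2 and, within sst1.1+, in replicate 1. In ins+ over sst1.1+ cldni was 2.73-fold higher without overlap but not called (edgeR adjusted p = 0.125), and none of the other 4 was called in any comparison. These profiles share libraries and depth, with n = 8, and were ranked on the same data, so nothing is read from the lack of calls.

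**Figure D5:**
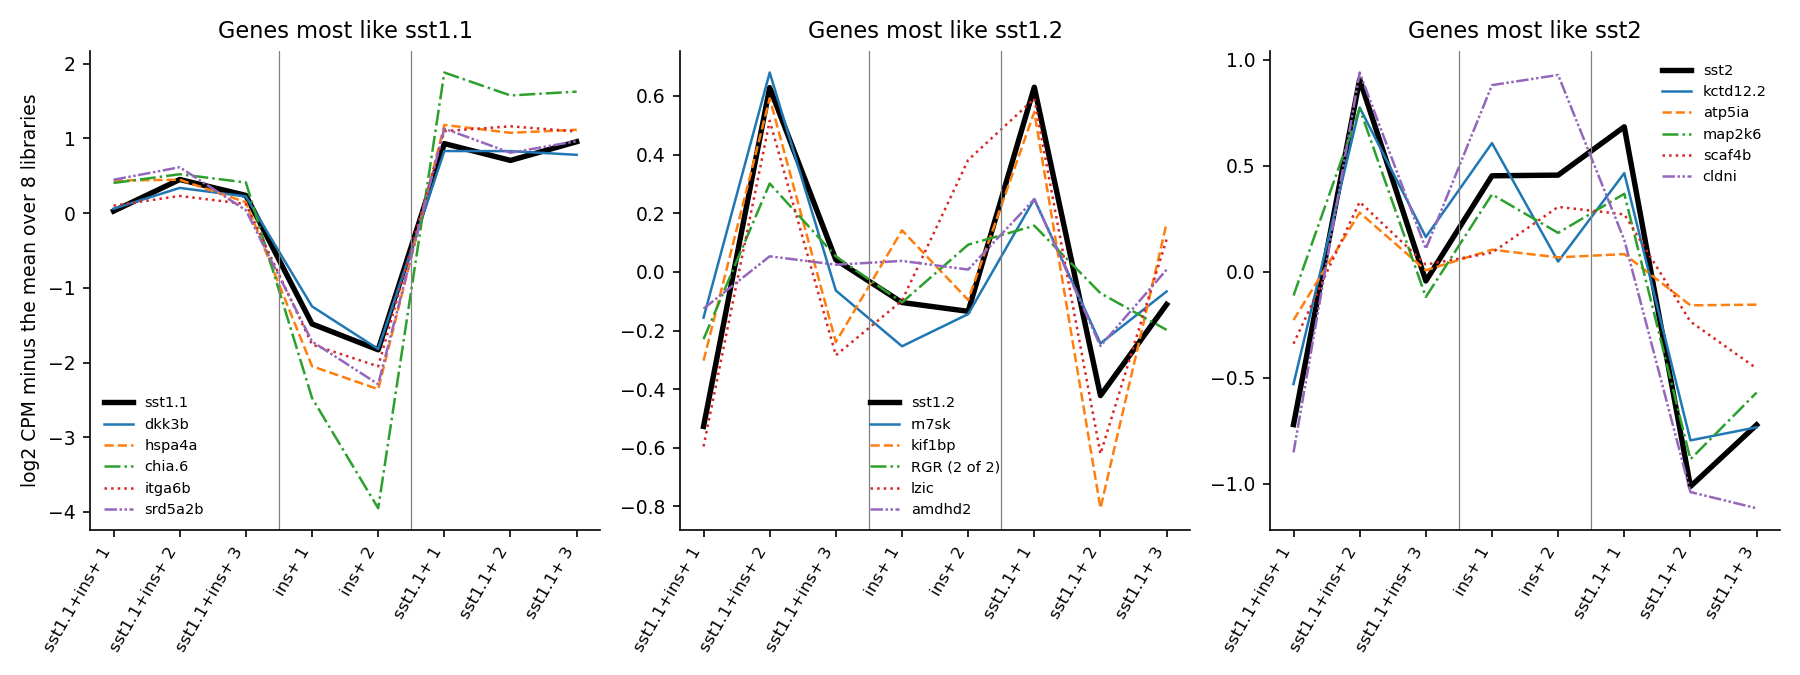
log2 CPM minus each gene's mean over the 8 libraries, for sst1.1, sst1.2 and sst2 (thick lines) and 5 genes each (thin lines). The thin lines are the genes with the highest Pearson's r to each, among the 3799 genes compared. Vertical lines separate the groups. The sst1.1 panel steps with the groups, whereas the thick sst1.2 and sst2 lines peak in sst1.1+ins+ replicate 2 and sst1.1+ replicate 1; some thin lines of the sst2 panel, such as cldni, are higher in ins+ than in sst1.1+ replicate 1.

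Among the other ligands of the somatostatin and urotensin family, urp2 was the one with sizeable counts. It encodes a urotensin II-related peptide and had 4661 counts over the 8 libraries. It stood at 13.0, 28.1 and 27.3 CPM in sst1.1+ins+, at 9.62 and 4.46 CPM in ins+, and at 53.8, 23.4 and 24.4 CPM in sst1.1+. It was 4.80-fold lower in ins+ than in sst1.1+ (log2 fold change -2.26 ± 0.54 SE, edgeR adjusted p = 0.0388) and was not called in sst1.1+ins+ over ins+ (log2 fold change 1.69, adjusted p = 0.201). The remaining ligands were sparse: sst3 had 40 counts over all 8 libraries, sst6 had 59, urp1 had 76 and uts2a had 5, while uts2b and uts2d had 0. Of 7 family genes tested, sst1.1 and urp2 were called lower in ins+ over sst1.1+ and sst1.1 was called higher in sst1.1+ins+ over ins+, beside 2.42% of all genes called lower in the first comparison and 0.755% called higher in the second. The median log2 fold change of the 7 was -0.57 in sst1.1+ins+ over sst1.1+, 0.24 in sst1.1+ins+ over ins+ and -0.22 in ins+ over sst1.1+, beside 0.00, 0.08 and -0.07 over all genes tested. The first median is the value of urp2 and the others are those of sst1.2, none of them called. The sparse genes sst3, sst6 and urp1 are among the 7, so these medians do not describe a shift of the family.

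The receptors that somatostatin acts on were barely sampled. Of 10 listed names 4 were matched by name in the table. Of those 4, sstr1a alone passed the filter, with 181 counts over 8 libraries and at most 2.78 CPM in any. It was not called in any comparison by edgeR, DESeq2 or limma-voom, at unadjusted edgeR p of 0.581 or more. Counts of sstr3 came from 1 library, which held 37, and sstr5 and sstr1b had 0. A row named SSTR2 (1 of 2) in the table, outside the list and chosen after its values were seen, had 0, 1 and 0 counts in sst1.1+ins+, against 0 and 0 in ins+ and 18, 8 and 19 in sst1.1+. That row also passed the filter, but its counts are low and it was not called (edgeR adjusted p of 0.312 or more). Rows named SSTR2 (2 of 2) and SSTR3 (2 of 2), likewise matched by no listed name, had 0 counts in every library. At 3 counts the floor was 0.122 to 0.124 CPM in sst1.1+ins+ libraries and 0.151 and 0.177 CPM in ins+ libraries, on gene totals without TMM factors. A receptor transcript below that level could give 0 counts in a library.

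Prohormone-processing genes, whose products cut and trim peptide precursors such as prosomatostatin and proinsulin, numbered 13, all of them tested. In ins+ over sst1.1+, where 4.03% of genes were called and 1.61% were called higher, 3 of the 13 rose and 0 fell. The carboxypeptidase gene cpe averaged 2679 ± 5.05 CPM in ins+ and 1707 ± 34.1 CPM in sst1.1+ (1.57-fold, edgeR adjusted p = 0.00587). The convertase chaperone gene scg5 averaged 262 ± 36.4 CPM in ins+ and 127 ± 18.9 CPM in sst1.1+ (2.07-fold, adjusted p = 0.00589). The convertase inhibitor gene pcsk1nl averaged 1067 ± 128 CPM in ins+ and 696 ± 101 CPM in sst1.1+ (1.53-fold, adjusted p = 0.0416). None of the 13 was called by edgeR in sst1.1+ins+ over sst1.1+ or over ins+. Over sst1.1+, 3 had an unadjusted p under 0.05 and DESeq2 called 2, beside 274 of all genes tested. Over ins+, 5 had an unadjusted p under 0.05 and DESeq2 called 2, beside 770 of all genes tested. The list gave median log2 fold changes of 0.37 over sst1.1+, -0.33 over ins+ and 0.38 in ins+ over sst1.1+. For cpe, sst1.1+ins+ libraries averaged 2213 ± 77.2 CPM, between the other groups and without overlap with either; 30.3% of all genes did not overlap with ins+ and 14.7% did not overlap with sst1.1+.

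The signalling chain below the receptors was listed with 20 tested Gi/o-protein, adenylate cyclase and potassium-channel genes. In ins+ over sst1.1+ edgeR called 1 of them, a share near the 4.03% of all genes, with 6 at an unadjusted p under 0.05. DESeq2 called 4 of them there, beside 1659 of all genes tested. The adenylate cyclase gene adcy6b fell to 0.667 ± 0.114 CPM in ins+, against 7.42 ± 1.51 CPM in sst1.1+ (11.03-fold, edgeR adjusted p = 0.0475). The most abundant of this list, the G-protein beta subunit gene gnb1b, averaged 281 ± 5.84 CPM in sst1.1+ins+, 301 ± 19.1 CPM in ins+ and 278 ± 38.5 CPM in sst1.1+, and was not called. For sst1.1+ins+ over sst1.1+ edgeR called 0 of the 20, with 0 at an unadjusted p under 0.05 and 0 called by DESeq2. Over ins+ edgeR called 0, with 5 at an unadjusted p under 0.05. DESeq2 called 2 over ins+, beside 770 of all genes tested. The list's median log2 fold change was -0.11 in sst1.1+ins+ over sst1.1+, 0.30 in sst1.1+ins+ over ins+ and -0.38 in ins+ over sst1.1+.

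Of 21 tested cAMP and CREB genes, 2 rose in ins+ over sst1.1+, where 1.61% of all genes were called higher, and both encode regulatory subunits of protein kinase A. The gene prkar1aa averaged 130 ± 27.1 CPM in sst1.1+ins+, 296 ± 25.9 CPM in ins+ and 130.2 ± 35.7 CPM in sst1.1+. It was 2.27-fold higher in ins+ than in sst1.1+ (edgeR adjusted p = 0.0156) and 2.28-fold lower in sst1.1+ins+ than in ins+ (adjusted p = 0.0408), the 1 member called in that comparison, where 0.164% of genes were called lower. The gene prkar1ab averaged 96.5 ± 25.5 CPM in sst1.1+ins+, 113 ± 1.48 CPM in ins+ and 58.3 ± 2.98 CPM in sst1.1+, and was 1.95-fold higher in ins+ than in sst1.1+ (adjusted p = 0.0331). In sst1.1+ins+ over sst1.1+ edgeR and DESeq2 each called 0 of the 21, with 2 at an unadjusted p under 0.05. The list's medians were -0.01 in sst1.1+ins+ over sst1.1+, 0.03 in sst1.1+ins+ over ins+ and 0.03 in ins+ over sst1.1+.

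Among 17 tested transcription factor genes known from mammalian somatostatin promoters or islet cell identity, 3 fell and 1 rose by edgeR in ins+ over sst1.1+, beside 2.42% of all genes called lower and 1.61% called higher. DESeq2 called 8 of the 17 there and limma-voom 6, beside 1659 and 616 of the 16418 genes tested. The delta-cell factor HHEX averaged 32.6 ± 1.77 CPM in sst1.1+ins+, 14.5 ± 2.48 CPM in ins+ and 62.1 ± 16.3 CPM in sst1.1+, and was 4.27-fold lower in ins+ than in sst1.1+ (edgeR adjusted p = 0.00191). The homeobox gene pbx3b was 3.36-fold lower (66.3 ± 14.4 CPM in ins+ against 223 ± 41.3 CPM in sst1.1+, adjusted p = 0.000712) and the ETS factor gene fev 2.52-fold lower (57.0 ± 6.12 against 144 ± 39.0 CPM, adjusted p = 0.00897). The zinc-finger gene insm1b was 3.35-fold higher (93.5 ± 3.97 CPM in ins+ against 28.0 ± 15.05 CPM in sst1.1+, adjusted p = 0.0391). In sst1.1+ins+ over ins+ DESeq2 called 4 of the 17, beside 770 of all genes tested. By edgeR, which called 0.92% of genes there, pbx3b was the 1 member called. It was 2.40-fold higher at 159 ± 8.10 CPM (adjusted p = 0.0155). HHEX was not called there (2.24-fold higher, adjusted p = 0.0952) or in sst1.1+ins+ over sst1.1+ (1.91-fold lower, adjusted p = 0.224), though its values overlapped in neither, as for 30.3% and 14.7% of all tested genes. The most abundant member was pdx1, a homeobox factor active at both the insulin and the somatostatin promoter in mammals, at 1475 ± 30.5 CPM in sst1.1+ins+, 1227 ± 91.4 CPM in ins+ and 1413 ± 274 CPM in sst1.1+, and it was not called. Over sst1.1+, sst1.1+ins+ gave 0 edgeR calls among the 17, with 4 at an unadjusted p under 0.05. DESeq2 called 1 of the 17 there, beside 274 of all genes tested. The list's medians were 0.16 in sst1.1+ins+ over sst1.1+, -0.36 in sst1.1+ins+ over ins+ and 0.61 in ins+ over sst1.1+.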

How the data were processed

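Raw counts of reads per gene were deposited by the authors for 8 libraries, with EGFP and ERCC spike-in rows (ERCC 0.0145 to 0.0501% of counts). Trim Galore, HISAT2 (GRCz11) and featureCounts, assigning to exons, were used per the submitters' processing notes and design text. Versions, strandedness and how multiply aligned reads were treated: not given in the sources used here.

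EGFP and ERCC rows stayed out of library totals. Genes were filtered by group with edgeR 4.0.16 defaults in R 4.3.3, scaled by TMM and fitted with 1 mean per group over all 8 libraries (quasi-likelihood test, 5 residual degrees of freedom). Benjamini-Hochberg adjustment ran over 16418 genes at a threshold of 0.05. Counts at an unadjusted p under 0.05 are given for the lists alone. The share of all genes under that value was not counted, so nothing is read from them. EGFP was added to the same genes for its own fit. SE is the log2 fold change over the square root of F. Levels are means ± SD, and profiles used log2 CPM with a prior count of 2. Ratios were compared by two-sided exact permutation tests (scipy 1.17.1). The code was tested on simulated data. Of 50 genes changed 2-fold there, the fit called 3 in sst1.1+ins+ over sst1.1+, 0 in sst1.1+ins+ over ins+ and 1 in ins+ over sst1.1+. Of 50 changed 4-fold it called 22, 22 and 14 in the same order. The changed genes were drawn at random among those averaging at least 1 CPM, few of which are as abundant as the somatostatin genes. A gene of the lists that was not called may therefore still differ by such an amount. For the somatostatin genes the 95% intervals above apply instead. Alternatives included DESeq2 1.42.0 and limma 3.58.1. The members and gene lists were chosen with earlier results of these data known. Named genes are the members, EGFP, list genes called or most abundant in their list, and the 5 closest profiles per member.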

Additional observations from a re-analysis of the deposited data

How the results depend on the processing

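The sst1.1 calls between ins+ and both other groups held under every alternative run (RLE scaling, library totals, totals without hormone and mitochondrial genes, no filter on low counts, DESeq2, limma-voom with quality weights, 2-group fits, a replicate block and each library left out), with log2 fold changes of 1.74 to 2.08 in sst1.1+ins+ over ins+ and -2.70 to -2.36 in ins+ over sst1.1+. In sst1.1+ins+ over sst1.1+ sst1.1 was called without the filter (-0.62), by DESeq2 (-0.63) and by limma-voom (-0.66), and ran from -0.73 to -0.52 with a library left out, never called. With limma-voom sst1.2 turned to -0.16 there. With a library left out, sst1.2 ran from -0.32 to 0.38 in sst1.1+ins+ over sst1.1+, -0.10 to 0.48 in sst1.1+ins+ over ins+ and -0.43 to 0.14 in ins+ over sst1.1+, and sst2 from -0.20 to 1.06, -0.80 to 0.05 (0.0524, without sst1.1+ins+ replicate 1) and 0.31 to 1.31. Without the filter sst2 was called in ins+ over sst1.1+ (0.60). EGFP in sst1.1+ins+ over sst1.1+ ran from -1.24 to -1.09. The causes were not tested. With ins+ reduced to 1 library, its lone sample is taken to vary as the remaining groups do.

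Over all genes, 34 were called in sst1.1+ins+ over sst1.1+, 151 in sst1.1+ins+ over ins+ and 662 in ins+ over sst1.1+. These counts were 229, 560 and 1276 without the filter and 274, 770 and 1659 with DESeq2, while limma-voom called 99 in the first and the 2-group fit 383 in the last. With a library left out they ran from 19 to 39, 59 to 192 and 364 to 753, lowest without sst1.1+ins+ replicate 3, sst1.1+ins+ replicate 1 and ins+ replicate 2. Over all tested genes, same-numbered libraries of different groups did not deviate together (correlations -0.03 to 0.01 over 7 pairs, against -0.04 to 0.04 over 14 pairs with different numbers). Correlations over every tested gene cannot exclude a pairing, and no label states one. The hormone gene gip was highest in replicate 2 and lowest in replicate 3 of both reporter-positive groups. The hormone gene ghrl was highest in replicate 3 of both, at 3945 CPM in sst1.1+ins+ and 2593 CPM in sst1.1+. Its lowest values were in replicates of different number, 49.8 CPM in sst1.1+ins+ replicate 1 and 82.5 CPM in sst1.1+ replicate 2. By contrast, sst2 peaked in replicates of different number. With a replicate block 44, 181 and 648 genes were called, the sst1.1 log2 fold changes were -0.62, 1.88 and -2.50 in the same order, and no call on a somatostatin gene or EGFP changed.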
